A study of Saccharomyces cerevisiae with 4 samples.

Results

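The Hsp70, Hsp90 and disaggregase chaperones of budding yeast were followed here through 10 genes, chosen by their symbols in the platform annotation: SSA1, SSA2, SSA3, SSA4, SSB1, SSB2, HSC82, HSP82, SSE1 and HSP104. All 10 were found among the 5449 S. cerevisiae genes measured, on 11 of 5498 probe sets, with 2 probe sets for SSB1. The deletion cells, strain Y3501, were of mating type a and carried wpl1∆::KAN, a replacement of WPL1 by a resistance marker. The wild type cells were strain K699, also of mating type a. Each genotype had 2 Affymetrix Yeast Genome 2.0 arrays of total RNA from exponential growth in rich glucose medium without any stress treatment, and arrays of replicate number 2 carry a different date tag from those of number 1. Each genotype is thus a single strain, and nothing in the labels states that its 2 arrays are separate cultures. The p-values therefore cover only array-to-array spread, and the number of arrays limits the precision. How much of this spread is technical was not tested, and the replicates differed over chromosome IX, as given below.

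Hsp70 proteins bind exposed hydrophobic stretches of unfolded proteins and release them in a cycle driven by ATP, J-domain proteins and nucleotide exchange factors. Hsp90 acts later, on kinases and other clients that are nearly folded, and the Hsp104 disaggregase pulls proteins out of aggregates together with Hsp70. In yeast most of these functions are covered by paralogs, one made in growing cells and another made mainly under heat or other stress. Heat shock factor Hsf1 drives many of these genes also in unstressed cells, and Msn2 and Msn4 drive the general stress response. WPL1, whose product releases cohesin from chromosomes, appears under the standard name RAD61 and is no chaperone.

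Log2 values are RMA values of single probe sets, and those of different genes are not set against each other because probes differ in brightness. The median S. cerevisiae gene stood at 8.25 and 8.43 in deletion replicates 2 and 1 and 8.34 and 8.38 in wild type replicates 2 and 1. RAD61, measured at 4.44 and 3.96 in deletion replicates 2 and 1 and 6.55 and 6.43 in wild type replicates 2 and 1, was not above background in either deletion array, which makes the deletion at least 1.46-fold lower. The background limit of an array was the 95th percentile over its probe sets for S. pombe genes, 5.79 to 6.10. All 7 a-cell markers were above it in every array, with a log2 summed signal of 13.05 to 13.56 in the deletion and 12.90 to 13.46 in wild type. Of the 4 alpha-cell markers, 2 were above it in every array and STE3, the a-factor receptor of alpha cells, in none, with a log2 summed signal of 8.42 to 8.53 in the deletion and 8.34 to 8.76 in wild type. No chaperone of the 10 lies on chromosome IX, whose 191 genes had a median log2 difference between deletion and wild type of 0.66 in replicate 2 and 0.04 in replicate 1.

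All 10 chaperone genes were above background in every array. The nearest to it was SSA3, whose lowest value of 7.16, in deletion replicate 2, stood against a background limit of 6.10 there. Between genotypes, 0 of the 10 passed limma's test at a Benjamini-Hochberg adjusted p under 0.05, and 0% of all genes did. At an unadjusted p under 0.05 limma also gave 0 of 10, with 0.184% of all genes. With a block for the replicate number, limma gave 0 of 10 at the adjusted threshold, again with 0% of all genes, and 1 of 10 at an unadjusted p under 0.05, which was SSA2, with 2.86% of all genes. No member had its 2 deletion values on one side of its 2 wild type values, as 5.32% of genes did on the higher and 8.61% on the lower side. The genotype therefore set apart no chaperone beyond the spread of these arrays. RAD61, the deleted gene, did not pass the adjusted threshold in either fit. Its measured log2 difference was -2.29 (limma adjusted p = 0.14 with the block). The count of 0 thus does not show that the genotype left the chaperones unchanged. In bulk RNA, a low level in every cell and an absence from some cells cannot be told apart.

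SSA1 and SSA2 encode the cytosolic Hsp70s of growing cells. SSA1 (YAL005C, chromosome I) had log2 values of 10.88 and 11.39 in deletion replicates 2 and 1, against 9.93 and 11.29 in wild type replicates 2 and 1. SSA2 (YLL024C, chromosome XII) had 12.38 and 12.98 in the deletion, against 11.51 and 12.71 in wild type, in the same order of replicates. For both genes the 2 replicate 1 arrays lay close together, deletion replicate 2 lay lower, and wild type replicate 2 was the lowest of the 4. In replicate 2 the deletion was thus 0.96 above wild type for SSA1 and 0.87 for SSA2 on the log2 scale, or 1.94-fold and 1.83-fold. In replicate 1 the same differences were 0.10 and 0.28. Averaged over replicates, the log2 difference was 0.53 (SE 0.49, limma adjusted p = 1) for SSA1 and 0.58 (SE 0.46, limma adjusted p = 1) for SSA2, and neither passed. The SEs of genotype differences given here include the spread between replicate numbers, unless the replicate block is named.

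SSA3 and SSA4 encode the cytosolic Hsp70s that are induced by stress. SSA3 (YBL075C, chromosome II) had 7.16 and 7.70 in deletion replicates 2 and 1 and 7.28 and 7.55 in wild type replicates 2 and 1. SSA4 (YER103W, chromosome V) had 7.97 and 8.25 in the deletion and 7.75 and 8.28 in wild type. All 4 values of each gene lay within 0.55 for SSA3 and 0.53 for SSA4, while SSA1 and SSA2 spanned 1.46 and 1.47. Between genotypes, SSA3 differed by -0.13 in replicate 2 and by 0.16 in replicate 1, and SSA4 by 0.22 and -0.03. Among these 4 paralogs SSA1 and SSA2 therefore varied over a wider range than SSA3 and SSA4, mainly through the low values of wild type replicate 2. SSA3 and SSA4 lay nearer to background, and compression of differences there was not tested.

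**Figure D1:**
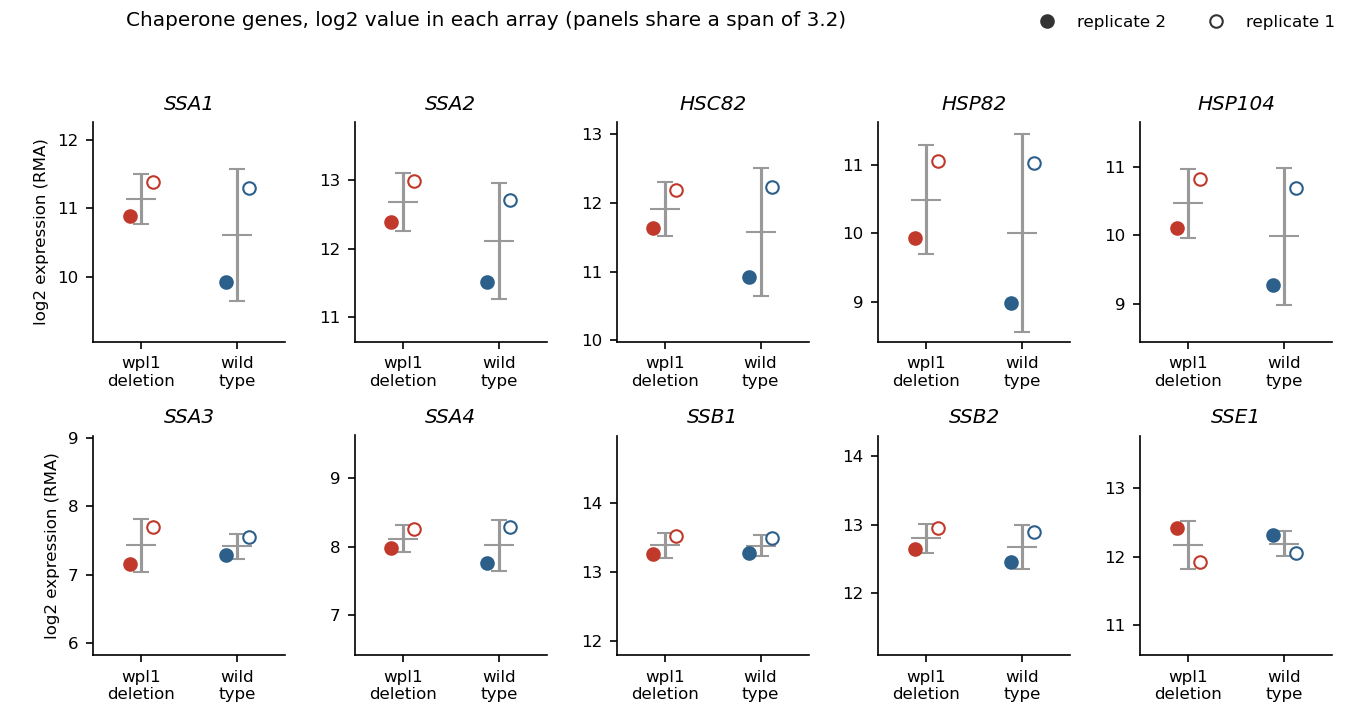
Log2 expression of the 10 chaperone genes in each array, with the wpl1 deletion (red) left of wild type (blue), replicate 2 as filled and replicate 1 as open points. Grey bars give the mean ± SD (n = 2), and every vertical axis spans the same range of log2 units. In the upper row the filled wild type point is the lowest of the 4, while SSE1 has both filled points above the open ones.

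HSC82 and HSP82 encode the Hsp90 paralogs, HSC82 made at all times and HSP82 raised further by heat. HSP82 (YPL240C, chromosome XVI) had the widest range of the 10 genes, with 9.93 and 11.06 in deletion replicates 2 and 1 and 8.99 and 11.02 in wild type replicates 2 and 1. HSC82 (YMR186W, chromosome XIII) had 11.64 and 12.19 in the deletion and 10.92 and 12.24 in wild type. Again replicate 1 gave nearly the same value in both genotypes and wild type replicate 2 was lowest. The deletion was 0.94 above wild type for HSP82 and 0.71 for HSC82 in replicate 2, and 0.04 and -0.05 in replicate 1. The mean log2 differences were 0.49 (SE 0.73) for HSP82 and 0.33 (SE 0.48) for HSC82 (limma adjusted p = 1 for each). They were smaller than their errors in this fit, which has no replicate block. With the block the SEs were 0.24 and 0.22, so both differences exceeded them. Neither gene passed with the block (limma adjusted p = 0.996 for each).

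HSP104 (YLL026W, chromosome XII), the disaggregase gene, followed the same order of arrays. Its log2 values were 10.11 and 10.83 in deletion replicates 2 and 1 and 9.28 and 10.70 in wild type replicates 2 and 1. The deletion was 0.83 above wild type in replicate 2 and 0.13 in replicate 1, with a mean difference of 0.48 (SE 0.52, limma adjusted p = 1). HSP104 lies near SSA2, with the seripauperin gene PAU17 as the one measured gene between them. PAU17 had 8.06 and 8.24 in deletion replicates 2 and 1 and 8.40 and 8.60 in wild type, so it differed between genotypes by -0.34 in replicate 2 and -0.36 in replicate 1. The outer neighbours ISA1, of mitochondrial iron-sulfur assembly, and POM33, of the nuclear pore, had genotype differences of -0.24 and 0.23 in replicate 2. None of the 3 neighbours thus had the genotype differences of 0.83 and 0.87 seen for HSP104 and SSA2 in that replicate. Between replicate numbers 2 of them were lower in replicate 2, as HSP104 (-1.07) and SSA2 (-0.90) were. POM33 had a log2 difference of -1.05 (limma adjusted p = 0.026) and ISA1 -0.64 (limma adjusted p = 0.044). PAU17 had -0.19 and did not pass (limma adjusted p = 0.34).

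SSB1 and SSB2 encode the Hsp70s that sit on ribosomes and bind nascent chains. SSB1 (YDL229W, chromosome IV) had 13.26 and 13.52 in deletion replicates 2 and 1 and 13.28 and 13.49 in wild type replicates 2 and 1, the narrowest range of the 10. SSB2 (YNL209W, chromosome XIV) had 12.65 and 12.95 in the deletion and 12.45 and 12.90 in wild type. Their genotype differences in replicate 2 were -0.02 and 0.20, against 0.03 and 0.05 in replicate 1. The 2 SSB1 probe sets had genotype differences of -0.02 each in replicate 2 and -0.01 and 0.06 in replicate 1. Between replicate numbers they differed more. The brighter probe set by itself gave a log2 difference of -0.32 for replicate 2 minus replicate 1, against -0.23 for the mean of both. These probe sets are bright, with array maxima of 15.01 to 15.05, and compression of differences near the top of the scale was not tested.

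SSE1 (YPL106C, chromosome XVI), an Hsp110 that exchanges nucleotide on Hsp70, was the one member with higher values in replicate 2. It had 12.41 and 11.92 in deletion replicates 2 and 1 and 12.32 and 12.06 in wild type replicates 2 and 1. Between genotypes it differed by 0.09 in replicate 2 and -0.14 in replicate 1. SSE2, its stress-induced paralog, had 7.70 and 8.57 in the deletion and 7.32 and 7.82 in wild type, with genotype differences of 0.37 and 0.75. SSE2 is thus a gene of this family whose larger genotype difference lay in replicate 1.

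In replicate 2, 5 of the 10 chaperones were above wild type by over 0.5 log2 units in the deletion, against 4.18% of all genes. They were SSA1, SSA2, HSC82, HSP82 and HSP104, and their differences lay at the 98.1th to 99.4th percentile of all genes. In replicate 1, 0 of 10 were, against 2.09% of all genes. The 10 had a median genotype difference of 0.47 in replicate 2 and 0.04 in replicate 1, and all genes had -0.10 and 0.04. For these 5 genes wild type replicate 2 was the lowest array. That it lay more than 0.5 below deletion replicate 2 was how they were picked. Of the 228 genes of any kind so picked, 162 also had wild type replicate 2 lowest, which is 2.97% of all genes. A lowest wild type replicate 2 was thus common among genes picked in this way. The limit of 0.5 was chosen with the values known. In the same replicate the 191 chromosome IX genes had a median genotype difference of 0.66, against 0.04 in replicate 1. Genotype and this chromosome-wide difference cannot be told apart in replicate 2. Without wild type replicate 2 the median genotype difference of the 10 was -0.13, and without wild type replicate 1 it was 0.67, against 0.23 with all 4 arrays. Such fits set both deletion arrays against 1 wild type array, so the difference between replicate numbers enters them. In replicate 1 by itself 7 of the 10 genotype differences were above 0, as were those of 3258 of all 5449 genes, a like share. Whether the genotype difference itself differed between replicate numbers was not tested, because 4 arrays leave no residual degree of freedom for it.

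**Figure D2:**
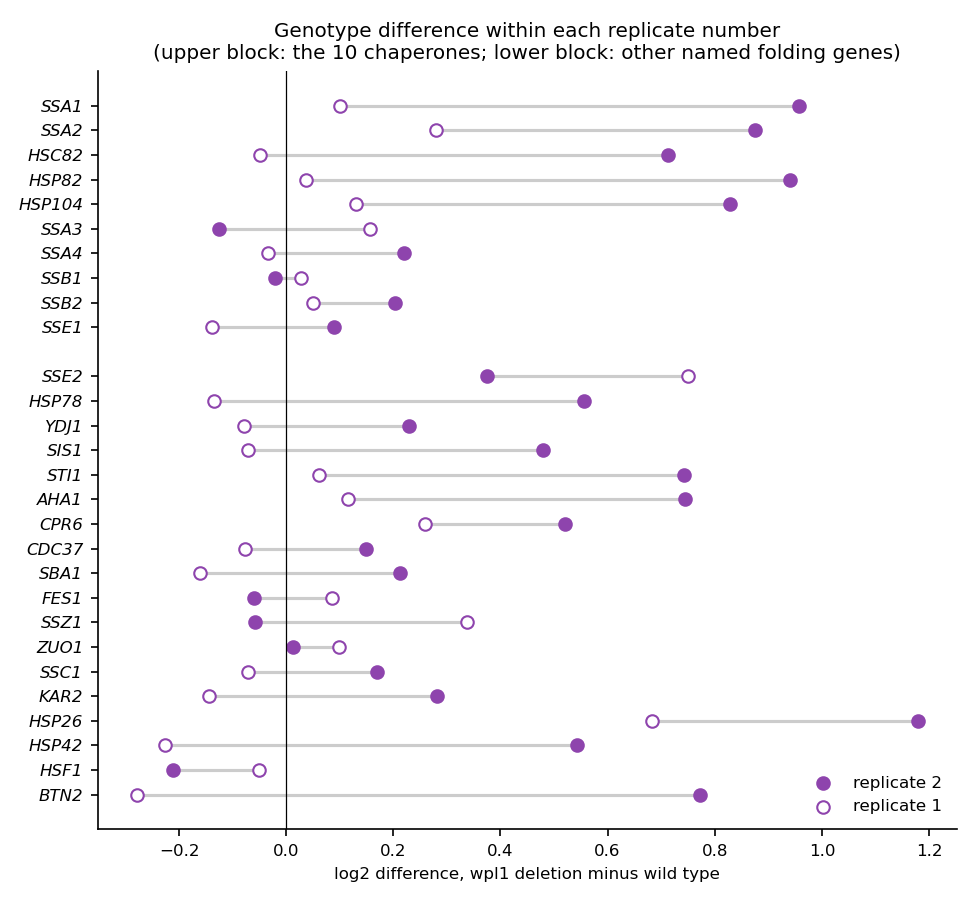
Log2 difference between the wpl1 deletion and wild type in replicate 2 (filled) and replicate 1 (open) for the 10 chaperones (upper block) and 18 other named folding genes (lower block). SSA1, SSA2, HSC82, HSP82 and HSP104 lie between 0.71 and 0.96 in replicate 2 and between -0.05 and 0.28 in replicate 1. HSP26 is drawn at its measured differences although it was not above background in wild type.

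Replicate 2 against replicate 1 was the larger contrast. With genotype in the fit, 4 of the 10 chaperones were lower in replicate 2 at a limma adjusted p under 0.05, against 13.2% of all genes, and 0 of 10 were higher, against 6.15%. The 4 were HSP82 with a log2 difference of -1.58 (SE 0.24, limma adjusted p = 0.027), HSP104 with -1.07 (SE 0.21, limma adjusted p = 0.034), HSC82 with -0.93 (SE 0.22, limma adjusted p = 0.045) and SSA2 with -0.90 (SE 0.19, limma adjusted p = 0.040). SSA1 had -0.94 (SE 0.23) and missed the threshold (limma adjusted p = 0.051). The other differences were -0.40 for SSA3, -0.40 for SSA4, -0.23 for SSB1, -0.38 for SSB2 and 0.38 for SSE1, with limma adjusted p from 0.11 to 0.27. All 4 calls were lost when the fit held all 10928 probe sets, where the adjusted p of the 4 ran from 0.133 to 0.146 and 0 genes of any kind passed. Without the genotype term 3 of the 10 passed, against 28.4% of all genes, and the call of SSA2 ended (limma adjusted p = 0.064).

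The replicate difference is given for each genotype, without a test of one against the other. HSP82 differed by -1.13 on the log2 scale in the deletion and by -2.03 in wild type, so it was 2.19-fold and 4.09-fold lower in replicate 2. HSP104 was 1.64-fold lower in replicate 2 in the deletion and 2.67-fold lower in wild type. SSA1, SSA2 and HSC82 were 1.42-fold, 1.52-fold and 1.47-fold lower in the deletion and 2.57-fold, 2.29-fold and 2.49-fold lower in wild type. SSA3 had the opposite order, with 1.46-fold in the deletion and 1.20-fold in wild type. In wild type 5 of the 10 chaperones were lower by over 1 log2 unit, against 2.95% of all genes, and in the deletion 1 of 10, HSP82, against 4.33%. The genotype difference of replicate 2 and the replicate difference of wild type both contain wild type replicate 2, so a low value of that array enters both. The groups of replicate numbers did not overlap for any of the 10, with 9 lower and SSE1 higher in replicate 2, but among all genes 46% were lower and 23.4% higher in this way.

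The replicate differences are relative to the arrays' scaling. The median gene was at -0.13 as deposited and at -0.02 after each array was centred on the median S. cerevisiae gene. Limma called 721 genes lower and 335 higher in replicate 2 as deposited, 826 lower and 775 higher after centring, and 717 lower and 748 higher after quantile normalization over the genes. The share of lower calls among the called genes was thus 68.3% as deposited, 51.6% after centring and 48.9% after quantile normalization, and it moved mainly through the number of higher calls. The chaperones kept their signs under both scalings. After centring 5 of the 10 were called lower, now including SSA1, against 15.2% of all genes, and after quantile normalization 5 of the 10, again with SSA1, against 13.2%. SSE1 had 0.48 after centring (limma adjusted p = 0.0502) and 0.43 after quantile normalization (limma adjusted p = 0.067).

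**Figure D3:**
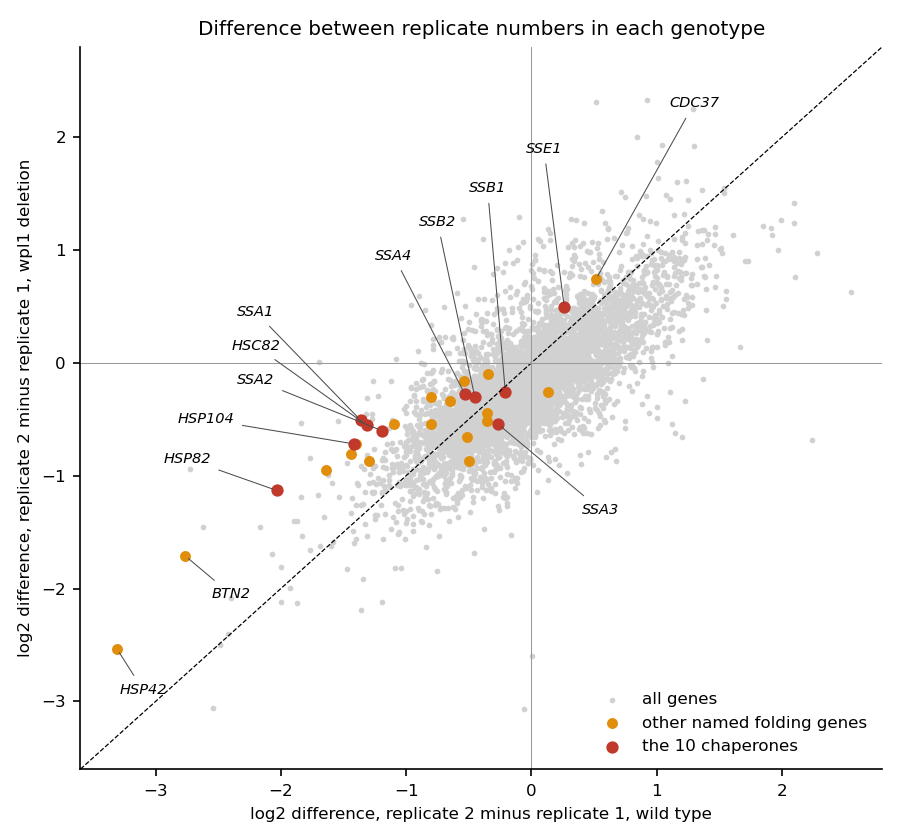
Log2 difference between replicate 2 and replicate 1 in the wpl1 deletion (vertical) and in wild type (horizontal) for all 5449 genes (grey), the 10 chaperones (red) and 18 other named folding genes (orange). The dashed line marks equal differences in both genotypes. HSP82 stands at -1.13 in the deletion and -2.03 in wild type, above the line, and SSE1 lies with CDC37 on the side of higher values in replicate 2.

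Paralogs were compared by their differences, the log2 difference of one gene minus that of the other, over 9 pairs. Not every pair sets a stress-induced gene against a constitutive one, as SSA1 with SSA2 and SSB2 with SSB1 do not. Between genotypes, SSA3 minus SSA1 was -1.08 in replicate 2 and 0.06 in replicate 1, and SSA3 minus SSA2 was -0.9998 and -0.12. SSA4 minus SSA1 was -0.74 and -0.13, and SSA4 minus SSA2 was -0.65 and -0.31. In replicate 2 SSA3 and SSA4 thus showed less of a genotype difference than SSA1 and SSA2. SSA1 and SSA2 differed from each other by 0.08 and -0.18, HSP82 from HSC82 by 0.23 and 0.09, and SSB2 from SSB1 by 0.22 and 0.02. SSE2 minus SSE1 was 0.28 and 0.89, and HSP104 minus its mitochondrial paralog HSP78 was 0.27 in both replicates. Two-sided exact permutation tests over the 4 arrays cannot go below 0.333, which SSA3 minus SSA2 and HSP104 minus HSP78 reached (adjusted p = 0.75 over the 9 pairs, exact test). This test, which does not use the replicate pairing, could thus not have called any pair different at 0.05, and no blocked fit of the pair differences was run.

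Between replicate numbers the Hsp90 pair moved apart by like amounts in both genotypes. HSP82 minus HSC82 was -0.58 in the deletion and -0.72 in wild type, so the heat-raised paralog was the lower of the pair in replicate 2 relative to replicate 1. SSE2 minus SSE1 was -1.36 in the deletion and -0.76 in wild type. For the cytosolic Hsp70s, SSA4 had a smaller decrease than SSA1, with SSA4 minus SSA1 at 0.23 in the deletion and 0.83 in wild type. SSA3 minus SSA1 was -0.04 in the deletion and 1.10 in wild type, so SSA3 had a smaller decrease than SSA1 in wild type and a like one in the deletion. A stress-induced paralog was therefore not always the more variable one. These permutation tests were equally limited, with an exact p of 0.333 for 5 of the 9 pairs and an adjusted p of 0.6 at the lowest. SSA1 with SSA2, SSB1 with SSB2, and HSC82 with HSP82 are near-identical copies, and cross-hybridisation between them was not tested, so their separate values are uncertain.

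**Figure D4:**
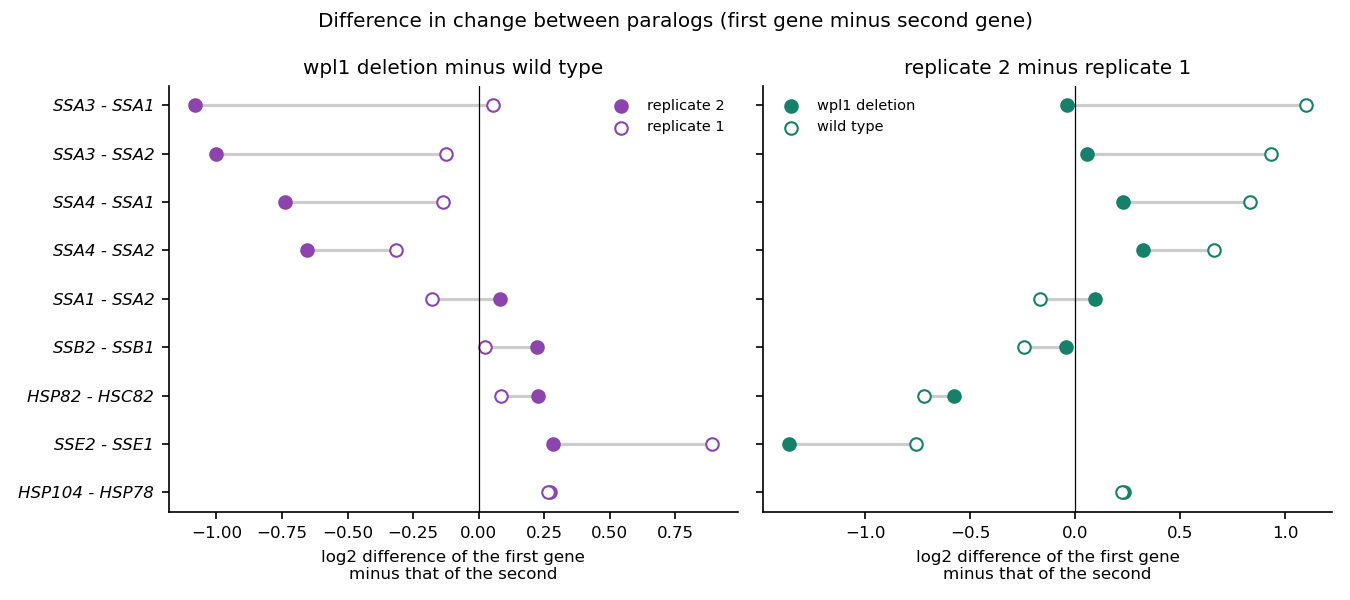
Log2 difference of the first gene minus that of the second for 9 paralog pairs, between genotypes on the left (replicate 2 filled, replicate 1 open) and between replicate numbers on the right (wpl1 deletion filled, wild type open). On the left the 4 pairs of SSA3 or SSA4 with SSA1 or SSA2 lie between -1.08 and -0.65 in replicate 2. On the right HSP82 minus HSC82 is at -0.58 and -0.72.

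Genes of several functions had profiles close to these. Likeness was the Euclidean distance between log2 profiles over the 4 arrays, each centred on its own mean, among the 5261 other genes above background in some array. SSA1 and SSA2 were close to each other (distance 0.145), SSA2 being the nearest gene but 1 to SSA1, after MPM1, a mitochondrial membrane protein, and before ACO1, aconitase. SSA2 had SSA1, HSP60, the mitochondrial chaperonin, and TSL1, of trehalose synthesis, as its 3 nearest genes. The 2 nearest genes to HSP104 were the Hsp90 co-chaperone genes STI1 (distance 0.079) and AHA1 (0.083), followed by SSA1 (0.161). HSC82 had PET9, the mitochondrial ADP/ATP carrier, MPM1 and CAR2 nearest, and HSP82 had GPD1, of glycerol synthesis, PIC2 and TPS1, of trehalose synthesis, at distances of 0.288 to 0.314. HSC82 was the 45th nearest gene to HSP82 at a distance of 0.671, and HSP82 the 787th nearest to HSC82. SSA4 was the 1243rd nearest to SSA3, although at a smaller distance of 0.279. Paralogs were thus not always near in rank, and rank does not follow distance across members. Genes with flat profiles have many near neighbours. SSA3 had SEC17, BNA4 and TCP1, SSA4 had CPR3, FMP10 and CLP1, SSB1 had YOR111W, UMP1 and PRM2, SSB2 had KIN1, NIF3 and OYE2, and SSE1 had SVS1, GAB1 and CWP2, all at distances of 0.013 to 0.055.

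Co-chaperones of Hsp70 and Hsp90 were a list of 22 genes, all measured. Between replicate numbers 9 of them were lower and 2 higher in replicate 2 by limma, against 13.2% and 6.15% of all genes, with a median log2 difference of -0.50 against -0.13 for all genes, and between genotypes 0 of 22 passed, with a median of 0.06 against -0.03. STI1, which links Hsp70 to Hsp90, had 10.55 and 11.27 in deletion replicates 2 and 1 and 9.81 and 11.21 in wild type replicates 2 and 1, and AHA1, the activator of the Hsp90 ATPase, had 9.30 and 10.10 in the deletion and 8.55 and 9.99 in wild type. Both genes had wild type replicate 2 as their lowest array, with the deletion 0.74 and 0.75 above it. SIS1, a J-domain protein, and CPR6, an Hsp90 cyclophilin, had replicate differences of -0.82 and -0.67 (limma adjusted p = 0.042 and 0.041), and FES1, an exchange factor of Hsp70, -0.58 (0.048). YDJ1, the main cytosolic J-domain protein, had -0.49 and SBA1, the p23 of yeast, -0.35, and neither passed.

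CDC37, which brings kinases to Hsp90, was higher in replicate 2. It had 9.77 and 9.03 in deletion replicates 2 and 1 and 9.63 and 9.11 in wild type replicates 2 and 1, a replicate difference of 0.63 (SE 0.15, limma adjusted p = 0.045). The other co-chaperone called higher in replicate 2 was JJJ3, a J-domain protein of diphthamide synthesis, with 1.53 (limma adjusted p = 0.026), named after its value was seen. CPR7, TAH1, CNS1 and JJJ1 had positive differences, of 0.55, 0.53, 0.20 and 0.13, that did not pass, and they too were named after their values were seen. That of JJJ1 averages opposite signs, -0.12 in the deletion and 0.38 in wild type, so JJJ1 did not share the direction of SSE1 in both genotypes. The direction of SSE1 was thus shared by some genes of the Hsp90 and Hsp70 systems and not by most of them.

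Ribosome-associated chaperones, which work beside SSB1 and SSB2, gave 0 of 5 genes called between replicate numbers by limma, with a median of -0.40. With 13.2% of all genes called lower and 6.15% higher, a count of 0 among 5 genes is near the background share. SSZ1 and ZUO1, which form the ribosome-associated complex, had replicate differences of -0.06 and -0.40 and genotype differences of -0.06 and 0.01 in replicate 2. Of 13 organelle chaperones, 5 were lower in replicate 2 by limma, against 13.2% of all genes, with a median of -0.35. HSP78, the mitochondrial disaggregase, had -1.29 (limma adjusted p = 0.027) and KAR2, the Hsp70 of the endoplasmic reticulum, -1.08 (limma adjusted p = 0.027). KAR2 was 0.28 above wild type in deletion replicate 2, while SSC1, the mitochondrial Hsp70, had a replicate difference of -0.22 and did not pass.

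Other targets of Hsf1 were 21 genes, of which 10 are also in the co-chaperone list and 6 in the organelle list. In replicate 2, 16 of the 21 were lower and 0 higher by limma, against 13.2% and 6.15% of all genes, with a median of -0.81. HSP42, a small heat shock protein that gathers misfolded proteins, had 7.75 and 10.29 in deletion replicates 2 and 1 and 7.21 and 10.52 in wild type replicates 2 and 1, a difference of -2.92 (SE 0.22, limma adjusted p = 0.023). BTN2, another protein of aggregate sorting, had 8.29 and 10.00 in the deletion and 7.51 and 10.28 in wild type, a difference of -2.24 (limma adjusted p = 0.026). These 2 genes moved further than any of the 10 chaperones. HSP26, another small heat shock protein, did not rise above background in either wild type array, which makes the deletion at least 1.28-fold higher. Msn2 and Msn4 targets gave 13 of 22 genes lower and 0 higher, against the same shares of all genes, with a median of -0.88. HSF1 itself had a replicate difference of -0.43, and 0 of the 7 regulators passed. Between genotypes 0 genes of any of these lists passed in limma, and the Hsf1 targets had a median genotype difference of 0.48 in replicate 2 and 0.03 in replicate 1. All of these calls between replicate numbers were lost in the fit of all 10928 probe sets.

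**Figure D5:**
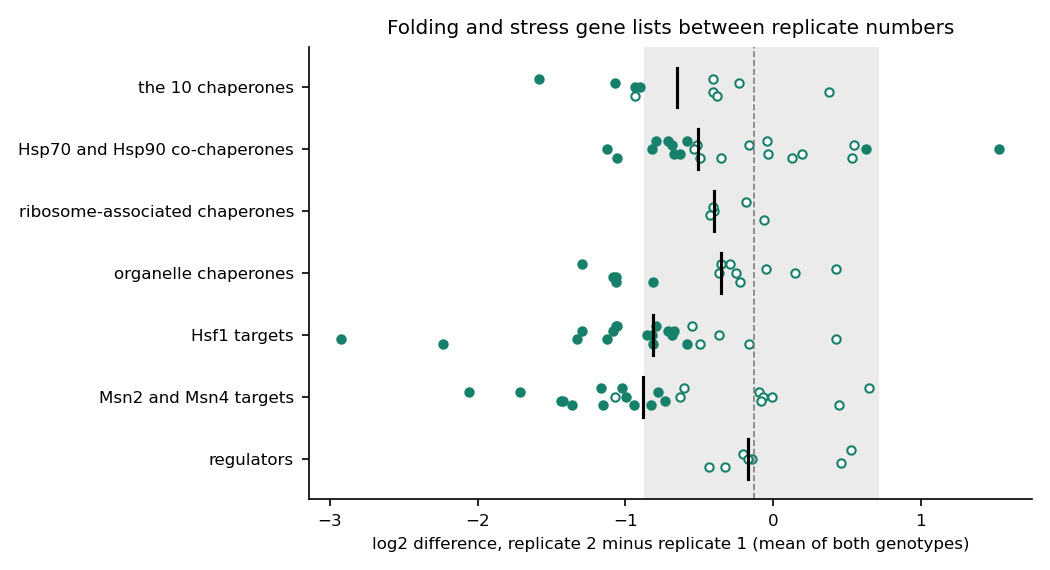
Log2 difference between replicate 2 and replicate 1, averaged over genotypes, for each gene of 7 lists, with genes of adjusted p under 0.05 in limma filled, the others open, and a black bar at each list's median. The grey band runs from the 5th to the 95th percentile of all genes, -0.86 to 0.71, and the dashed line is their median of -0.13. The medians of the chaperones, Hsf1 targets and Msn2 and Msn4 targets lie at -0.65, -0.81 and -0.88.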

How the data were processed

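The deposited log2 values come from RMA as run by the authors with affy, per the submitters' processing notes, and no version of either is given in the sources used here. RMA corrects background, equalises probe distributions between arrays and summarises the probes of a set, so differences are relative to the other transcripts. Labelled double-stranded cDNA, per the labels' protocols, keeps no strand. The platform annotation named 1 gene for 7244 of 10928 probe sets, several for 1 and none for 3683. Gene IDs placed 5498 on S. cerevisiae genes (NCBI gene table, assembly R64), averaged to 5449 genes, and 1746 on S. pombe genes, used as background.

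Tests used limma 3.58.1 under R 4.3.3 (lmFit, eBayes, two-sided, Benjamini-Hochberg over all genes). The genotype fit had no covariate and left 2 residual degrees of freedom, and the replicate fit had genotype as a term and left 1. Paralog pairs were tested by exact permutation. The date tags in the labels pair arrays of the same replicate number, and deviations from group means correlated with r = 0.747 between them across genes. Replicates were not duplicates: the deletion arrays shared 25 equal values and the wild type arrays 39. Members, lists and named genes, with 3 nearest genes per member, were chosen with earlier results of these data known. Alternatives were other probe set and scaling choices, filters, priors, the block and leaving out each array. No sequences were used here.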

Additional observations from a re-analysis of the deposited data

Results flagged for a closer look

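The genes looked at were the 10 chaperones, the 18 other named folding genes, RAD61, PAU17, ISA1 and POM33. Further genes named in the text were left out. Among those looked at, opposite signs of the replicate difference in the 2 genotypes occurred for SSZ1 alone, a ribosome-associated Hsp70 relative. Its replicate 2 minus replicate 1 difference was -0.26 in the deletion and 0.13 in wild type on the log2 scale. Each value is a difference of 1 array from another, and the difference between genotypes was not tested. No group was large enough to look for single outlying arrays.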

How the results depend on the processing

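The arrays are few, and the signal of every chaperone was above background in all 4. Between genotypes, limma called 0 genes and 0 chaperones under the replicate block (median of the chaperones 0.23, SSE1 -0.02, HSP82 0.49), and the block changed no other call. The other settings that kept all arrays also called 0 and kept each chaperone's sign. With 1 array left out the fit mixes genotype with date. It then called 0 to 1 genes higher, 0 to 2 lower and 0 chaperones, and the chaperones' median ran from -0.13 (without wild type replicate 2) to 0.67 (without wild type replicate 1), against 0.23. Over these fits SSA1 ran from -0.15 to 1.21, SSA2 from -0.020 to 1.17, SSA3 from -0.26 to 0.29, SSA4 from -0.17 to 0.36, SSB1 from -0.12 to 0.13, SSB2 from -0.10 to 0.35, HSC82 from -0.32 to 0.99, HSP82 from -0.53 to 1.505, SSE1 from -0.27 to 0.22 and HSP104 from -0.23 to 1.19. Among the pairs, HSP82 minus HSC82 ran from -0.20 to 0.52, SSA1 minus SSA2 from -0.13 to 0.036, SSA3 minus SSA1 from -1.06 to 0.037 and SSE2 minus SSE1 from -0.10 to 1.27.

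Between replicate numbers, all probe sets in the fit left 0 genes higher, 0 lower and 0 chaperones called, with HSP82 at -1.58, HSP104 at -1.07, HSC82 at -0.93 and SSA2 at -0.90 as before. The cause was not tested. Genes called higher numbered 775 after centring and 748 after quantile normalization, against 335. SSA1 passed at -0.94 without dim genes, with a trended and robust prior and without the chromosome IX genes, at -0.83 after centring and at -0.81 after quantile normalization. SSB2 passed at -0.38 with the trended and robust prior. SSA2, at -0.90, did not pass without the genotype term. SSA1 minus SSA2 turned to 0.10 under quantile normalization, against -0.04. With 1 array left out, SSA1 minus SSA2 ran from -0.13 to 0.051, SSA3 minus SSA1 from -0.0097 to 1.07 and SSA3 minus SSA2 from -0.0067 to 0.99. The replicate fit then has no residual degree of freedom, so no calls were made, and the chaperones' median ran from -0.86 to -0.53.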
